A study of Mus musculus with 6 samples.

Results

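Macrophages that live in a tissue carry surface proteins that tell one resident subset from another, and the transcripts of 10 such markers were followed here in starry-sky tumor-associated macrophages (SS-TAMs) and in germinal center macrophages (GCMs). The 10 genes are Adgre1, Siglec1, Cd5l, Timd4, Vsig4, Cd163, Treml4, Paqr9, Lyve1 and Icam2. They were found among the probe sets whose annotation names exactly 1 gene, each had 1 probe set, and together they are 10 of 19938 genes measured. SS-TAMs were taken from tumors that BL2 cells, a human Burkitt's lymphoma line, formed under the skin of female Balb/c SCID mice, which lack functional T and B lymphocytes. The tumors had reached 1.44 cm2, and the cells were picked by staining for CD68. GCMs, the tingible-body macrophages that clear dying B cells, came from female CSF1R EGFP transgenic Balb/c mice immunised with 2 doses of sheep red blood cells. Their labels conflict on the organ, with the spleen given as tissue and in the growth protocol and lymph nodes given as source. All mice were 6 to 12 weeks old. From each of 3 mice per group 1000 cells were laser-captured, and their amplified RNA was hybridized to 1 mouse gene array per mouse. Genotype, host lymphocytes, treatment, the way cells were picked and the tissue sampled thus all differed between the groups and cannot be told apart.

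Adgre1 (EMR1) encodes the classical surface antigen of mouse tissue macrophages. In the spleen, red pulp macrophages recycle iron from aged red cells, metallophilic macrophages at the border of the follicle carry CD169 (Siglec1), and tingible-body macrophages inside germinal centers engulf apoptotic B cells. CD5L, TIM-4 (Timd4) and CRIg (Vsig4) are shared by several long-lived resident populations, such as Kupffer cells of the liver and large peritoneal macrophages. LYVE-1 marks macrophages that line vessels, and ICAM-2 those of the peritoneal cavity.

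The values are intensities on a linear scale. No detection calls were used, so a low value is given as a level and not as absence. The median intensity of an array was 6.1 to 6.5 and serves as a guide to the low end of the scale. The bright end differed between the groups. The top percentile of probe sets began at 241 to 284 on SS-TAM arrays and at 614 to 664 on GCM arrays. Over all probe sets the median correlation of log2 intensities was 0.970 among SS-TAM arrays, 0.988 among GCM arrays and 0.920 between the groups. Core macrophage markers, a list that holds Cd68 and Csf1r by which the cells were found, were above the array median in 20 of 22 cases in SS-TAMs and 18 of 22 in GCMs, and 17 of the 22 were called higher in SS-TAMs. Because captured cells were measured in bulk, fewer cells of a type and less RNA per cell cannot be told apart. T cell markers summed to intensities of 1355 to 1818 on GCM arrays against 283 to 399 on SS-TAM arrays, and their part in the results was not tested. BL2 cells are human and the arrays carry mouse probes, so these sums cannot measure how much tumor cell RNA the SS-TAM captures held.

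The subset markers did not move together. Adgre1, Cd5l and Paqr9 were higher in SS-TAMs at a limma adjusted p under 0.05, none was lower, and Siglec1, Timd4, Vsig4, Cd163, Treml4, Lyve1 and Icam2 were not called. Over all genes 5.16% were called higher and 4.74% lower. The median log2 difference was 0.32 over the 10 markers and 0.041 over all genes. Of the 10, 7 had groups that did not overlap, against 30.1% of all genes. The 3 SS-TAM arrays lay wholly above the 3 GCM arrays for 5 of the 10 (Adgre1, Siglec1, Cd5l, Vsig4 and Paqr9), against 18.5% of all genes. They lay wholly below for Treml4 and Lyve1, against 11.5% of all genes, and the arrays overlapped or touched for Timd4, Cd163 and Icam2. An unadjusted p under 0.05 was reached by 5 of the 10, the called genes with Treml4 and Lyve1.

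**Figure D1:**
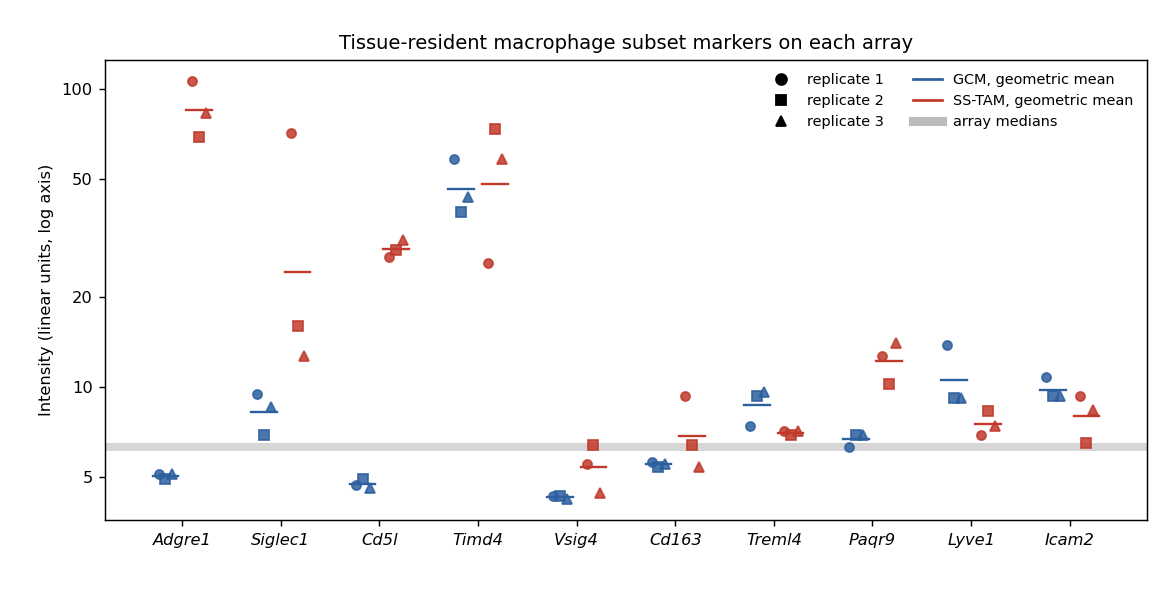
Intensity (linear units, log axis) of the 10 subset markers; points are single arrays, blue for the 3 GCM and red for the 3 SS-TAM mice with shapes for the replicate number, bars are geometric means, and the grey band spans the array medians of 6.1 to 6.5. Adgre1 and Cd5l rise from below the band in GCMs to 68.9 or more and 27.2 or more in SS-TAMs, Timd4 lies at 26.1 or more on all 6 arrays, and Vsig4 stays at or under 6.4.

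Adgre1 had the largest measured difference of the 10. EMR1 is an adhesion G protein-coupled receptor with a long chain of EGF-like domains, whose level differs between resident macrophage populations. Its intensity was 106.4, 68.9 and 82.9 in SS-TAM replicates 1, 2 and 3 and 5.1, 4.9 and 5.1 in the GCM replicates. The lowest SS-TAM array was thus far above every GCM array, and all GCM arrays lay under the array median. On the log2 scale the groups differed by 4.07 (standard error 0.16, 95% confidence interval 3.69 to 4.46, adjusted p = 0.000376 from limma), a 16.8-fold ratio. Given the low GCM level, this ratio may be understated on the deposited scale. With arrays centred on core macrophage markers, which moved nearly all genes down, the log2 difference was 2.35. The call held without any 1 array, with log2 differences between 3.91 and 4.22.

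Relatives of Adgre1 did not share its pattern as a group. Of 9 other adhesion receptors measured, Adgrl2 (latrophilin 2) and Adgrg1 (GPR56) rose, with log2 differences of 2.38 and 0.34, and none fell. The closest relatives in family E are Adgre4 and Adgre5 (CD97). Adgre4 lay between 4.0 and 4.2 on all 6 arrays. Adgre5 was at 37.7, 18.5 and 30.8 in SS-TAMs and 40.3, 39.2 and 52.7 in GCMs (log2 difference -0.65, adjusted p = 0.21 from limma). The median log2 difference of the 9 was -0.012. EMR1 is also present on eosinophils. Of 14 eosinophil, neutrophil and mast cell markers none was called, with summed intensities of 71.9 to 76.9 in SS-TAMs and 70.7 to 72.4 in GCMs. Just 2 of the 14 were above the array median in each group, and the part of such cells in the level of Adgre1 was not tested.

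Cd5l had the narrowest SS-TAM range and the smallest standard error of the called markers. It encodes a secreted scavenger protein of the cysteine-rich family, also known as apoptosis inhibitor of macrophages, that circulates with IgM and is made by tissue macrophages. SS-TAM arrays read 27.2, 28.9 and 31.2, and GCM arrays 4.7, 4.9 and 4.6. No array came near the other group, and the GCM values were again under the array median. The groups differed by 2.62 on the log2 scale (standard error 0.070, 95% confidence interval 2.45 to 2.79, adjusted p = 0.000194 from limma). The 6.14-fold ratio may be understated on the deposited scale for the same reason as that of Adgre1. With arrays centred on core macrophage markers the log2 difference was 0.90. Leaving out any 1 array left the call in place and the log2 difference between 2.57 and 2.67.

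Promoter sequence is given for Cd5l, Timd4 and Vsig4, since they stand for the patterns seen among the markers (low in GCMs and higher in SS-TAMs, well above the array median in both, and low in both). The RefSeq promoter table of build GRCm38.p6 held 5 of the 10 markers. In the 250 bases before each start, read 5′ to 3′ on the gene's strand, 8 motifs were searched on both strands, and capitals mark every match. They were the PU.1 core GAGGAA (present in 23.3% of all such windows), the composite site of ETS and IRF factors, GGAA and GAAA with 2 bases between them (2.3%), the interferon-response core, GAAA repeated after 2 bases (2.98%), the STAT site TTCNNNGAA (7.02%), the MITF/TFE E-box CACGTG (6.02%), the MAF half-site TGCTGAC (3.81%), the LXR repeat, AGGTCA repeated after 4 bases (0.0152%), and TATAAA (12.4%). The ETS-IRF and interferon-response patterns share their GAAA end and can overlap. The Cd5l window (chr3:87357631-87357880, plus strand) held 1 PU.1 core, on the opposite strand.
Cd5l: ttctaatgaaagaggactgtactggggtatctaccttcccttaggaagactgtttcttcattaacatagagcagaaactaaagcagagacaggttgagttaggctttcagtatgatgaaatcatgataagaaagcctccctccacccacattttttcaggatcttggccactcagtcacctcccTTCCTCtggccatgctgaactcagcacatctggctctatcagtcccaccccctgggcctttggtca
The Timd4 window (chr11:46810549-46810798, plus strand) held the ETS-IRF composite site, starting 72 bases before the start, and a MAF half-site on the opposite strand, 45 bases before it. These matches do not overlap.
Timd4: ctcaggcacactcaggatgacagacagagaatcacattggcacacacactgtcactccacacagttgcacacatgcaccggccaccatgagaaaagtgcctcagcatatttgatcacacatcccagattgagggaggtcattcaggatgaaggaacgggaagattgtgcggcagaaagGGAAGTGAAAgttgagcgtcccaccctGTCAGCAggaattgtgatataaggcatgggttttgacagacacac
The Vsig4 window (chrX:96293439-96293688, minus strand) held 2 PU.1 cores, which begin 155 and 53 bases before the start.
Vsig4: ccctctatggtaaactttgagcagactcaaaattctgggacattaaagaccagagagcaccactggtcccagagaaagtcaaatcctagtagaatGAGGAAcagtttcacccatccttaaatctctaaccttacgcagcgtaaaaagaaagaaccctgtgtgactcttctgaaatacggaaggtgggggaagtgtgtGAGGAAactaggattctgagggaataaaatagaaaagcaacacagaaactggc
The Treml4 window also held 2 PU.1 cores and the Cd163 window none of the 8 motifs. A match describes these letters and is not a measured site.

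Cd163 belongs to the same cysteine-rich family as Cd5l, and encodes the macrophage receptor that takes up complexes of hemoglobin and haptoglobin. It was at 9.3, 6.4 and 5.4 in SS-TAMs and 5.6, 5.4 and 5.5 in GCMs. Only SS-TAM replicate 1 stood above the array median, and replicate 3 fell within the GCM range. With 3 arrays each, the log2 difference was 0.32 with a 95% confidence interval of -0.17 to 0.80 (adjusted p = 0.35 from limma), which leaves room for a modest difference either way. Without SS-TAM replicate 1 it was 0.096, and without SS-TAM replicate 3 it was 0.49. Of 11 other genes of scavenger receptors and cysteine-rich proteins measured, Msr1, the class A scavenger receptor, rose (log2 difference 4.08) and none fell, and the family's close relative of Cd163, Cd163l1, had a log2 difference of 0.26 (adjusted p = 0.24 from limma).

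Several genes of hemoglobin and iron handling rose, while Cd163 itself was not called. Of 17 measured genes of haptoglobin, heme and iron handling, 7 were higher and none lower, with a median log2 difference of 0.70. The transferrin receptor gene Tfrc, the hemopexin receptor gene Lrp1, the transferrin gene Trf and the iron exporter gene Slc40a1 (ferroportin) were among those called, with measured log2 differences of 5.02, 3.07, 2.90 and 2.62. Those of Trf and Slc40a1 may be understated on the deposited scale, since GCM arrays lay near or under the array median. Hp, which encodes haptoglobin, was at 26.6, 15.5 and 18.6 in SS-TAMs against 7.0, 6.2 and 6.2 in GCMs (log2 difference 1.61, adjusted p = 0.0083 from limma). The heme oxygenase gene Hmox1 and the iron transporter gene Slc11a2 were the others called.

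Paqr9 had the smallest of the called differences. It encodes a membrane protein of the progestin and adipoQ receptor family. SS-TAM arrays read 12.7, 10.2 and 14 and GCM arrays 6.3, 6.9 and 6.9, so the groups were separate, with the GCM arrays just above their array medians. This gave a log2 difference of 0.87 (standard error 0.13, 95% confidence interval 0.56 to 1.17, adjusted p = 0.0134 from limma), a 1.82-fold ratio. The call was lost without GCM replicate 1, 2 or 3 (adjusted p = 0.059, 0.064 and 0.059 from limma). The direction turned, to -0.86, when arrays were centred on core macrophage markers, which moved nearly all genes down.
Of 15 measured genes of red pulp macrophages, 9 were higher and 1 lower, with a median log2 difference of 0.95. Trf, the apoptotic cell receptor gene Mertk, Slc40a1 and Hmox1 had measured log2 differences of 2.90, 2.90, 2.62 and 2.38. Spic, the transcription factor that red pulp macrophages depend on, was at 7.7, 7.7 and 8.0 against 4.8, 4.5 and 4.9 (log2 difference 0.72, adjusted p = 0.0021 from limma). These are low values, under the array median in GCMs and not far above it in SS-TAMs. Vcam1, Fcna, Nr1h3 and Hp were also called higher. The gene that fell was Runx3, a transcription factor of T cells and other lymphoid cells as well as of some macrophages, at -0.70. Within the receptor family of Paqr9, Paqr3 and the adiponectin receptor gene Adipor2 rose among 10 relatives (log2 differences 0.45 and 0.59) and none fell. Erythroid markers, which would accompany red cells, were called higher in 1 of 6 measured cases, Tfrc, a gene that many growing cells use, and 2 of the 6 were above the array median in either group.

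Timd4 was well above the array median in both groups and did not separate them. TIM-4 binds phosphatidylserine on the surface of apoptotic cells and tethers them to macrophages, and it is known on tingible-body macrophages, on resident peritoneal macrophages and on Kupffer cells. SS-TAM arrays were at 26.1, 73.1 and 58, and GCM arrays at 58.1, 38.7 and 43.4. The lowest and the highest value both belonged to SS-TAMs, and the GCM arrays lay between them. Group means with SD were 52.4 ± 24.0 and 46.7 ± 10.1 for SS-TAMs and GCMs (n = 3 each), a log2 difference of 0.060. Its 95% confidence interval ran from -0.92 to 1.04 (adjusted p = 0.93 from limma), so a difference of nearly 2-fold in either direction lies within it. Only 92 of 19938 genes (0.461%) had a wider range among the SS-TAM arrays.

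The other TIM genes gave low intensities. Havcr1, Havcr2 and Timd2 lay between 3.6 and 6.5 on every array and none was called. Of 16 other receptors and bridging proteins for phosphatidylserine measured, 7 were higher and 1 lower. Mertk, the scavenger receptor gene Cd36, the protein S gene Pros1 and the receptor kinase gene Axl had log2 differences of 2.90, 2.56, 2.12 and 1.95. Gas6, Cd300a and Itgb5 were also called higher. Mfge8, a bridging protein that follicular dendritic cells also make, fell, from 45.6, 32.6 and 39.7 in GCMs to 8.1, 10.1 and 8.2 in SS-TAMs (log2 difference -2.15, adjusted p = 0.0015 from limma).

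Vsig4 was low on all arrays. CRIg, its product, is the complement receptor through which Kupffer cells and other resident macrophages catch opsonized particles from blood, and it also belongs to the B7 family. The intensities were 5.5, 6.4 and 4.4 in SS-TAMs and 4.3, 4.3 and 4.2 in GCMs. No array exceeded its own median intensity. Although the groups did not overlap, the gap between the closest arrays was 4.4 against 4.3, and the log2 difference of 0.33 had a 95% confidence interval of -0.0059 to 0.67 (adjusted p = 0.20 from limma). It passed the threshold without SS-TAM replicate 3 (0.48, adjusted p = 0.043 from limma) and was 0.21 without SS-TAM replicate 2. Of 12 other complement receptor and B7 genes, C3ar1, the receptor for complement C3a, rose by 5.26 on the log2 scale and none fell. The complement receptor integrin genes Itgam and Itgax had log2 differences of 0.15 and 0.041 (adjusted p = 0.30 and 0.76 from limma), both at 8.5 or less on every array.

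Siglec1 was far higher on 1 SS-TAM array than on the others. CD169 is a sialic acid-binding receptor of metallophilic and lymph node sinus macrophages, and it is also one of the genes that type I interferon induces. Its intensity was 71.2, 16 and 12.7 in SS-TAM replicates 1, 2 and 3, and 9.5, 6.9 and 8.6 in GCMs. All SS-TAM arrays were above all GCM arrays, but replicate 1 was 4.45 times the next SS-TAM array. Just 7 of 19938 genes had a wider range among SS-TAM arrays. The log2 difference was 1.56 with a 95% confidence interval of -0.043 to 3.16 (standard error 0.65, adjusted p = 0.20 from limma). Without SS-TAM replicate 1 it was 0.79 (adjusted p = 0.073 from limma).

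Most interferon response genes were also highest on that array, and their part in the level of Siglec1 was not tested. Of 26 measured, 24 were strictly highest on SS-TAM replicate 1 among the SS-TAM arrays, against 29.4% of all genes, and 6 of them were there at least 2-fold above both other arrays. Over all genes 83 (0.416%) were that far above on replicate 1, against 4 on replicate 2 and 16 on replicate 3. Other lists peaked on replicate 1 to differing degrees. Strictly highest there were 12 of 22 core macrophage, 10 of 17 iron handling, 8 of 15 perivascular and 0 of 9 marginal zone genes. Ifit3 was at 117.0, 28.8 and 23.6 in SS-TAM replicates 1, 2 and 3 and at 6.4 to 8.8 in GCMs. Rsad2 (viperin) followed the same order, with 89.8, 27.5 and 23.9 against 8.5 to 9.0. Neither was called between the groups (adjusted p = 0.057 and 0.052 from limma), and in the whole list Ifit2 and Oas2 were higher and Usp18 lower, with a median log2 difference of 0.40. Of the 10 subset markers, 4 were strictly highest on SS-TAM replicate 1 (Adgre1, Siglec1, Cd163 and Icam2), against the same 29.4% of all genes. Cd5l, Timd4 and Lyve1 were lowest there, Timd4 at 26.1 where the other SS-TAM arrays had at least 2.22 times as much. Among genes brighter than Siglec1 on average, the 3 whose log2 profile over the 6 arrays was most like it were Misp3, BC005537 and Vps41 (Pearson r 0.993, 0.992 and 0.99, from 3310 genes ranked). These 6 arrays share the group difference and the high replicate. BC005537 was at 130.6, 71.4 and 67.7 in SS-TAMs and 54.2 to 55.8 in GCMs.

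**Figure D2:**
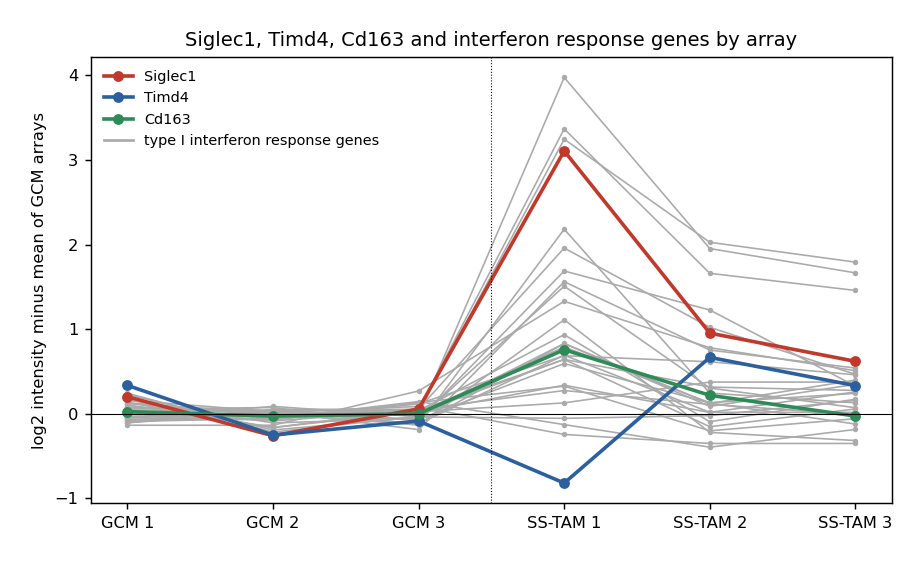
Log2 intensity minus the mean of the GCM arrays, for Siglec1 (red), Timd4 (blue), Cd163 (green) and 26 type I interferon response genes (grey) on each of the 6 arrays; lines only connect the values of a gene. Siglec1 and 24 of the grey genes peak within SS-TAMs on replicate 1, where Timd4 has its lowest value.

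Other sialic acid-binding lectins did not follow Siglec1. Of 8 relatives measured none was called, and their median log2 difference was 0.039. The brightest were Cd22, a B cell receptor, at 17.6, 16.6 and 22 in SS-TAMs and 19.9, 13 and 11.8 in GCMs, and Siglec15, at 12.7, 15.7 and 14.5 against 10.4, 9.2 and 11.2 (adjusted p = 0.35 and 0.051 from limma). Among genes known from perivascular macrophages, the folate receptor gene Folr2 was at 43.5, 13.7 and 11.3 in SS-TAM replicates 1, 2 and 3 and 5.5 to 6.1 in GCMs (log2 difference 1.69, adjusted p = 0.10 from limma). It thus had the same order of SS-TAM arrays as Siglec1.

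Treml4 was lower in SS-TAMs in value but not called. TREML4 binds dying cells and is found on splenic macrophages and on the CD8-positive dendritic cells of mice. Its intensity was 7.1, 6.9 and 7.1 in SS-TAMs and 7.4, 9.3 and 9.6 in GCMs. The groups did not overlap, yet GCM replicate 1 came close to the SS-TAM arrays. Its log2 difference was -0.31 (95% confidence interval -0.57 to -0.042, adjusted p = 0.15 from limma). It passed without GCM replicate 1, at -0.43 (adjusted p = 0.037 from limma), where 499 genes in all were called lower. Of 7 other genes of the TREM group, Trem2 and the adaptor gene Tyrobp rose (log2 differences 1.80 and 1.00) and the adaptor gene Hcst, abundant in lymphocytes, fell by 1.14. The nearest relatives Treml1 and Treml2 had log2 differences of 0.33 and -0.023 (adjusted p = 0.18 and 0.95 from limma). Dendritic cell markers, which share Treml4 with macrophages, were lower in 4 of 14 cases (Ccr7, Dpp4, Flt3 and Clec9a) and higher in 1, Cadm1. Their summed intensity was 217.7 to 249.5 in SS-TAMs and 200.4 to 289.9 in GCMs, and its part in the level of Treml4 was not tested.

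Lyve1 showed the larger of the differences toward GCMs, and it too was not called. LYVE-1 is a hyaluronan receptor of lymphatic endothelium and of vessel-lining macrophages. It was at 6.9, 8.3 and 7.4 in SS-TAMs and 13.8, 9.2 and 9.2 in GCMs. Each GCM array was above each SS-TAM array, with replicate 1 apart from the other GCM arrays. Between the groups the log2 difference was -0.49 (95% confidence interval -0.93 to -0.048, adjusted p = 0.16 from limma), and -0.29 without GCM replicate 1. Of 7 lymphatic endothelial markers none was called. Their summed intensity was 51.2 to 57 in SS-TAMs and 44.3 to 49.3 in GCMs, and the defining factor gene Prox1 lay between 4.5 and 6.2 on all arrays. Of 10 other genes of hyaluronan binding and turnover none was called, with the receptor gene Cd44 at 16.1 to 19.0 in SS-TAMs and 15.8 to 16.1 in GCMs.

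Icam2 overlapped between the groups and was not called. ICAM-2 is a ligand of the integrin LFA-1 on endothelium and lymphocytes, and marks large peritoneal macrophages. SS-TAM arrays read 9.3, 6.5 and 8.4 and GCM arrays 10.8, 9.3 and 9.3, so that SS-TAM replicate 1 equaled the lower GCM arrays. The log2 difference was -0.29 (95% confidence interval -0.65 to 0.068, adjusted p = 0.27 from limma), and -0.15 without SS-TAM replicate 2. None of 8 genes of its family and of the beta2 integrins was called, among them Itgb2 (log2 difference 0.56, adjusted p = 0.12 from limma) and Icam1 (0.070, adjusted p = 0.69 from limma). Of 18 vascular and sinus endothelial markers only Robo4 was called, higher at 0.27, and Pecam1 was at 16.6, 15.3 and 13.5 in SS-TAMs and 30.7, 21.1 and 21.1 in GCMs (log2 difference -0.67, adjusted p = 0.069 from limma).

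GCM replicate 1 had the highest GCM value of 5 of the 10 subset markers (Siglec1, Timd4, Cd163, Lyve1 and Icam2), against 26.6% of all genes. Of 9 marginal zone macrophage genes, 5 were strictly highest on the same array (Marco, Cd209b, Cd209d, Nr1h3 and Sirpa) and 4 were not. Ccl22 was lowest there, at 18 against 55.6 and 45, as were C2 and Cd209a. Marco was at 10.2, 6.8 and 6.6 and Cd209b at 9.9, 4.4 and 4.5 in GCM replicates 1, 2 and 3, while SS-TAM arrays lay between 4.5 and 6.7 for both. All 14 B cell markers measured were strictly highest there too, with a summed intensity of 530.1 on the highest and 190.9 on the lowest GCM array. Their part in the level of the subset markers on this array was not tested. Between the groups, 3 of 9 marginal zone genes were higher and none lower. They were Axl, Sirpa and Nr1h3, with log2 differences of 1.95, 1.84 and 0.95, whereas Marco and Cd209b were not called (adjusted p = 0.37 and 0.67 from limma).

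Lists of genes known from other resident populations differed in how many members were called. The lists share genes, so that Nr1h3, Slc40a1 and Fcna are counted repeatedly. For comparison, 5.16% of all genes and 17 of 22 core macrophage markers were called higher. Of 15 genes of perivascular and interstitial macrophages, 9 were higher and none lower, with a median log2 difference of 1.41. The mannose receptor gene Mrc1, Cd36, the chemokine gene Ccl8 and the platelet factor gene Pf4 were among those called, with measured log2 differences of 5.26, 2.56, 2.48 and 1.49. On GCM arrays Pf4 lay under the array median, and Mrc1 (5.8 to 6.9) and Ccl8 (5.5 to 8.6) lay near or under it. The differences of these 3 genes may therefore be understated on the deposited scale and are not ranked. Of 13 Kupffer cell genes, Slc40a1, Fcna, Cfp and Nr1h3 rose, all of which other macrophages also express, while the defining lectin gene Clec4f was at 5.5 to 7.0 in SS-TAMs and 6.5 to 7.1 in GCMs. Of 16 peritoneal macrophage genes, the fibronectin gene Fn1 and Ltbp1 rose, at 2.52 and 0.52, and the median difference was 0.065. Among 20 transcription factor genes of tissue macrophages, Spic, Nr1h3, Zeb2, Klf4 and Pparg were higher and Runx3 was lower. Nr1h3, which encodes LXR alpha, a known regulator of Cd5l and of splenic macrophage subsets, was at 9.7, 8.1 and 11.8 against 5.8, 4.3 and 5.2 (log2 difference 0.95, adjusted p = 0.026 from limma). Its GCM values lay under the array median.

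**Figure D3:**
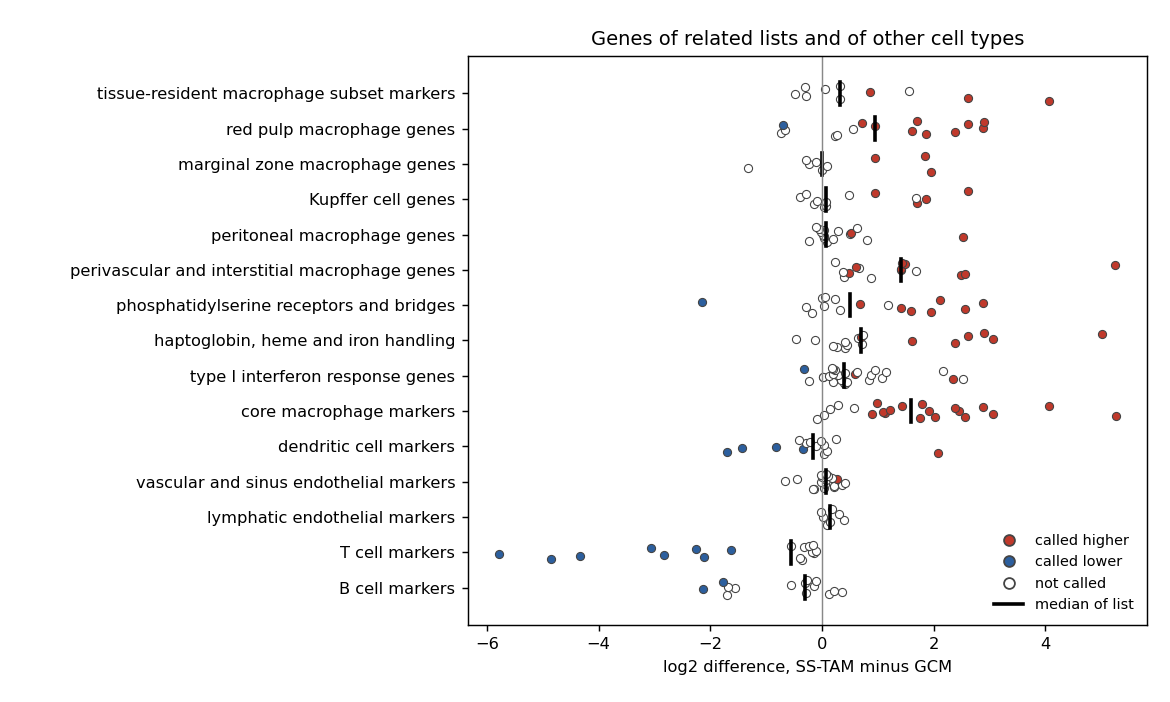
Log2 difference, SS-TAM minus GCM, of the measured genes of 15 lists; points are genes, red or blue where limma called them higher or lower and open where not, and vertical black marks give list medians. The subset markers have a median of 0.32, between that of marginal zone genes (0.011) and those of red pulp (0.95) and perivascular macrophage genes (1.41), and T cell markers reach -5.79. Some genes stand in several lists.

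The markers were also set against the 22 core macrophage markers measured, of which 17 were called higher in these same data. These core markers had a mean log2 difference of 1.72. With each array centred on them, the median of all genes moved to -1.68. Centring on a list that rose moves other genes down by construction. A turn below 0 is therefore not separate evidence that a marker was lower. After centring, Adgre1 and Cd5l stayed above 0, at 2.35 and 0.90. Paqr9 turned to -0.86 and Siglec1 to -0.16, while Timd4, Vsig4 and Cd163 lay at -1.66, -1.39 and -1.41, close to the median of all genes. Relative to that median, Adgre1 was at 4.03, Cd5l at 2.58, Paqr9 at 0.82 and Timd4 at 0.019. Under quantile normalization or median centring the called markers were again Adgre1, Cd5l and Paqr9. Timd4 had a log2 difference of 0.36 after quantile normalization and -0.00086 after median centring.

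**Figure D4:**
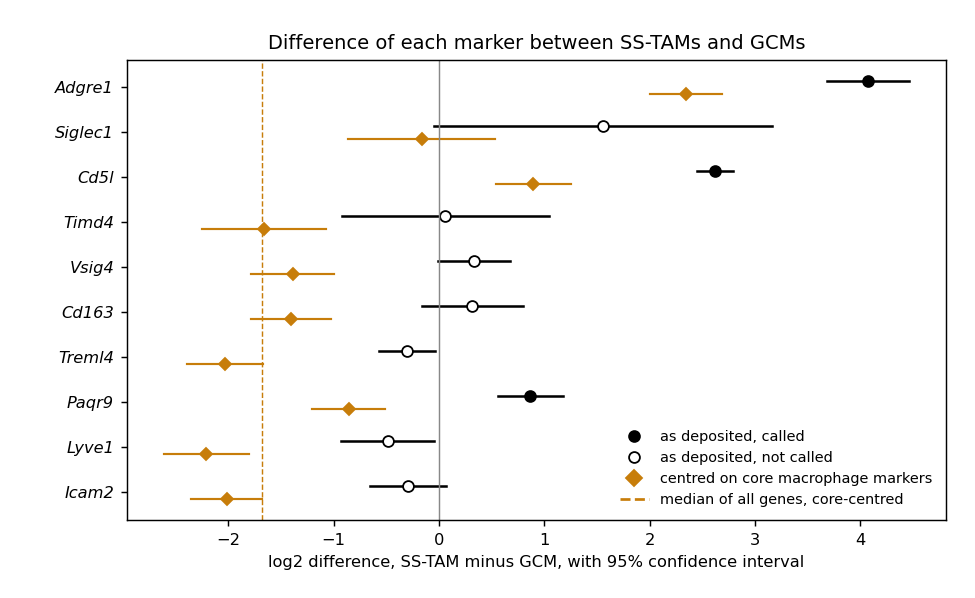
Log2 difference, SS-TAM minus GCM, with its 95% confidence interval for each subset marker from 3 arrays per group, as deposited (circles, filled where called) and with arrays centred on core macrophage markers (diamonds); the dashed line is the median of all genes after that centring, -1.68. Adgre1 and Cd5l lie above 0 on both scales, and the intervals of Siglec1 and Timd4 are the widest as deposited. The centred intervals rest largely on a variance that limma shares across genes. They do not show a marker's own spread between arrays, as for Siglec1 (-0.86 to 0.54, against -0.043 to 3.16 as deposited).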

How the data were processed

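Captured macrophages from 6 mice (3 SS-TAM, 3 GCM) were profiled on Affymetrix Mouse Gene 1.0 arrays, 1 per mouse. The deposited values are linear intensities with 1 decimal, which the authors made with RMA and limma according to their processing notes. Versions, settings and genome build were not given in the sources used here. Log2 was taken first. The number of arrays limits the precision. Of 28944 probe sets, 21789 name 1 gene, 1621 several and 5534 are unnamed here. Only the first kind was used, with symbols updated by gene ID through RefSeq (21698 matched), and the brightest probe set stood for each of 19938 genes.

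Log2 values of SS-TAMs and GCMs were fitted in limma (version 3.58.1, R 4.3.3; lmFit, then eBayes) without covariates. Two-sided p-values were adjusted by the Benjamini-Hochberg procedure across all 19938 genes, and calls were made under 0.05. Log2 differences are SS-TAM minus GCM. The procedure was tested on simulated data with noise drawn independently for each gene and array. Genes that peak together on a single array were not simulated. An exact permutation test of 3 against 3 arrays cannot give a p below 0.1. Members and lists were chosen with earlier results of these data known, so lists are described by counts and medians. Genes to name were the 10 markers, their closest relatives in the lists, up to 4 called genes of a list with the largest differences (or its 2 brightest where none was called) and the 3 genes most like Siglec1. Others were chosen after their values were seen, among them Spic, Runx3, Folr2, Ifit3, Rsad2, Marco, Cd209b, Mfge8, Clec4f, Prox1, Pecam1, Hp and the further called genes of a list. Alternatives were 3 other scalings, a filter on dim genes, a pseudocount of 10, averaged probe sets, another variance model, array weights, a replicate block and leaving out each array.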

Additional observations from a re-analysis of the deposited data

How the results depend on the processing

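Adgre1 and Cd5l were called higher under every alternative run, and Paqr9 under all but centring on core macrophage markers and the omission of any 1 GCM array. Centring on core macrophage markers moved nearly all genes down, with 79 called higher, 19735 lower and 7 of the 10 markers lower, and turned the log2 differences of Siglec1 to -0.16, Timd4 to -1.66, Vsig4 to -1.39, Cd163 to -1.41 and Paqr9 to -0.86, since each array was shifted by the core markers' own difference. Median centring gave 746 genes higher and 1169 lower, against 1028 and 946, and Timd4 at -0.00086.

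Leaving out 1 array gave 271 to 1159 genes higher, 399 to 796 lower, 2 to 4 markers higher and 0 to 1 lower. Without GCM replicate 1, 2 or 3 the counts of genes were 348, 271 and 303 higher and 499, 399 and 433 lower. Timd4 ranged from -0.24 (without SS-TAM replicate 2) to 0.50 (without SS-TAM replicate 1), with -0.076 without SS-TAM replicate 3 and -0.065 without GCM replicate 2. The causes were not tested. The filter on dim genes left 10634 genes and took out Vsig4 and Cd163.

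With the replicate number as a block, 611 genes were higher and 708 lower, with 3 markers higher and 0 lower. The numbers come from the labels, which give no shared litter or day. Deviations of same-numbered arrays correlated weakly, at 0.090, 0.087 and 0.019. Each array correlated best with its own number, a hint from the data and not the design.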
